A study of Mus musculus with 16 samples.

Results

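The mRNAs of 9 transcription factors of cortical neurons were followed across the series: Tbr1, Neurod2, Neurod6, Bcl11a, Bcl11b, Mef2a, Mef2c, Cux1 and Cux2. They were taken by symbol from the table of gene counts, which lists 48709 genes, and each matched 1 row. RNA came from the cerebral cortex of C57BL/6 mice. Synaptosomes (SYN) were isolated from it at 3 weeks, 5 months and 19 months, and total homogenate (TH), the tissue set aside before synaptosome enrichment, was sequenced at 5 months. Each of the 4 groups held 4 libraries, 16 in all, described as biological replicates. No treatment or genetic change was listed for any group. A synaptosome is a nerve terminal that breaks off during homogenization and reseals, often with a piece of the postsynaptic side. The fraction was not sorted, so RNA from glia, vessels, dendrites and cell bodies can be present in it. In bulk RNA of this kind, fewer cells or particles of a type and less RNA in each cannot be told apart.

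These factors belong to 5 families that specify or maintain neurons of the cortex. TBR1 is a T-box factor of deep-layer, mainly corticothalamic, projection neurons. NEUROD2 and NEUROD6 are basic helix-loop-helix factors that drive the differentiation of excitatory neurons. BCL11A and BCL11B (also called CTIP1 and CTIP2) are zinc finger proteins found in SWI/SNF (BAF) chromatin remodelling complexes, and BCL11B marks subcerebral projection neurons of layer V. MEF2A and MEF2C are MADS-box factors that respond to calcium and neuronal activity, are held in check by class IIa histone deacetylases, and limit the number of excitatory synapses. CUX1 and CUX2 are CUT homeodomain factors of upper-layer neurons that shape dendrites and spines. The proteins act in the nucleus, while a synaptosome has none.

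Several members make alternative transcripts, and the exons that the splicing tables describe are shown here, from the transcripts of GENCODE vM21 (build GRCm38), 5′ to 3′ on the coding strand. In Mef2a, an exon of 24 bases (chr7:67244521-67244544, minus strand) is either included or skipped; it corresponds to the beta exon of the MEF2 family, known from brain and muscle. Mef2c has an exon of 24 bases at the matching place (chr13:83654598-83654621, plus strand), and 17 of the 24 bases are the same at the same position. Exon bases are in capitals and the flanking 30 bases of the neighbouring exons in lower case.
Mef2a with the exon: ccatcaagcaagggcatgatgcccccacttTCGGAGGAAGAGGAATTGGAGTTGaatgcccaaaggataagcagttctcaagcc
Mef2a without the exon: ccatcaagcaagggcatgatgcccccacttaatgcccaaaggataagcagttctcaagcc
Mef2c with the exon: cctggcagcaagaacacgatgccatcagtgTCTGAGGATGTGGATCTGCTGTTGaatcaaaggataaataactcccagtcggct

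In Mef2c, a stretch of 96 bases at the start of an exon (chr13:83662307-83662402) corresponds to the gamma region. It is kept or left out by the choice of acceptor. It is shown in capitals with 30 bases on each side in lower case.
Mef2c 96-base stretch: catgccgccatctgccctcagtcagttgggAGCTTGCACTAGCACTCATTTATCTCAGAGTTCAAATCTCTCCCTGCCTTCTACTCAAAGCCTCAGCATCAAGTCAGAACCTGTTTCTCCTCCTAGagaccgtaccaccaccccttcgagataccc

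The Cux1 gene forks. After a shared exon that ends in the lower-case bases below, one arm goes on to the DNA-binding CUX1 protein and the other to CASP, a Golgi membrane protein that lacks the homeodomain. Capitals mark the first 30 bases of the next exon of each arm. A gene count of Cux1 sums both products, so every Cux1 level here is that of the locus.
Cux1 to the CUX1 arm: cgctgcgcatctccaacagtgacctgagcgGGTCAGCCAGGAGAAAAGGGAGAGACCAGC
Cux1 to the CASP arm: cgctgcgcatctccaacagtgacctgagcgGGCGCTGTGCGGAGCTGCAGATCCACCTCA

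Library totals ran from 10.6 to 21.7 megacounts, of which 17.6% to 52.3% lay on mitochondrial rRNA, leaving 6.56 to 14.6 megacounts outside the mitochondrial genome. The nuclear RNA Malat1 was at 15379 to 18281 CPM (counts per megacount of the library) in TH and at 493 to 1683 CPM in 11 SYN libraries, while 5 months SYN replicate 4 held 4817 CPM. Replicate 1 of 19 months SYN had the highest mitochondrial rRNA share. Both of these libraries stand apart from their groups. CPM here are scaled by the trimmed mean of M values (TMM) over the 16 libraries. The members were well covered in every library, with counts from 234 (Neurod6 at 19 months) to 10265 (Mef2c in TH). All 9 passed the filter on low counts in every comparison. Differences were tested with edgeR over all genes that passed the filter, and a gene was called at an adjusted p under 0.05; "higher", "lower", "rose" and "fell" of a comparison below refer to that call.

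Levels were compared between genes as CPM per kilobase of merged exons. In 5 months SYN, Mef2c (22.1 ± 2.86 CPM per kilobase, SD, n = 4) and Bcl11b (22.0 ± 1.95) led, followed by Neurod6 (17.9 ± 3.53), Neurod2 (13.5 ± 2.47), Cux2 (11.8 ± 0.414), Tbr1 (9.91 ± 0.597), Cux1 (7.67 ± 0.642), Mef2a (6.18 ± 0.202) and Bcl11a (4.40 ± 0.0888). Neighbours overlapped between libraries from Mef2c down to Cux2, and each later gene lay apart from the next. The order in TH was Mef2c (22.4 ± 2.90), Neurod6 (20.1 ± 3.59), Bcl11b (13.0 ± 1.27), Neurod2 (9.93 ± 2.2), Mef2a (8.36 ± 0.256), Tbr1 (8.33 ± 0.680), Bcl11a (7.60 ± 0.440), Cux2 (6.25 ± 0.341) and Cux1 (5.09 ± 0.263). There, Neurod6 lay apart from Bcl11b, Bcl11a from Cux2 and Cux2 from Cux1, and the other neighbours overlapped. At 3 weeks Mef2c (21.7 ± 1.05 CPM per kilobase) was first and Mef2a (5.66 ± 0.423) last in SYN, and at 19 months Bcl11b (20.8 ± 1.36) was first, apart from Mef2c (17.7 ± 0.341), and Bcl11a (4.23 ± 0.208) last. The order depends on the length used: per kilobase of the longest annotated transcript, Mef2a moved from rank 8 to 4 and Neurod2 from 4 to 7 in 5 months SYN, since the merged exons of Mef2a (14.681 kilobases) exceed its longest transcript (5538 bases) by far.

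**Figure D1:**
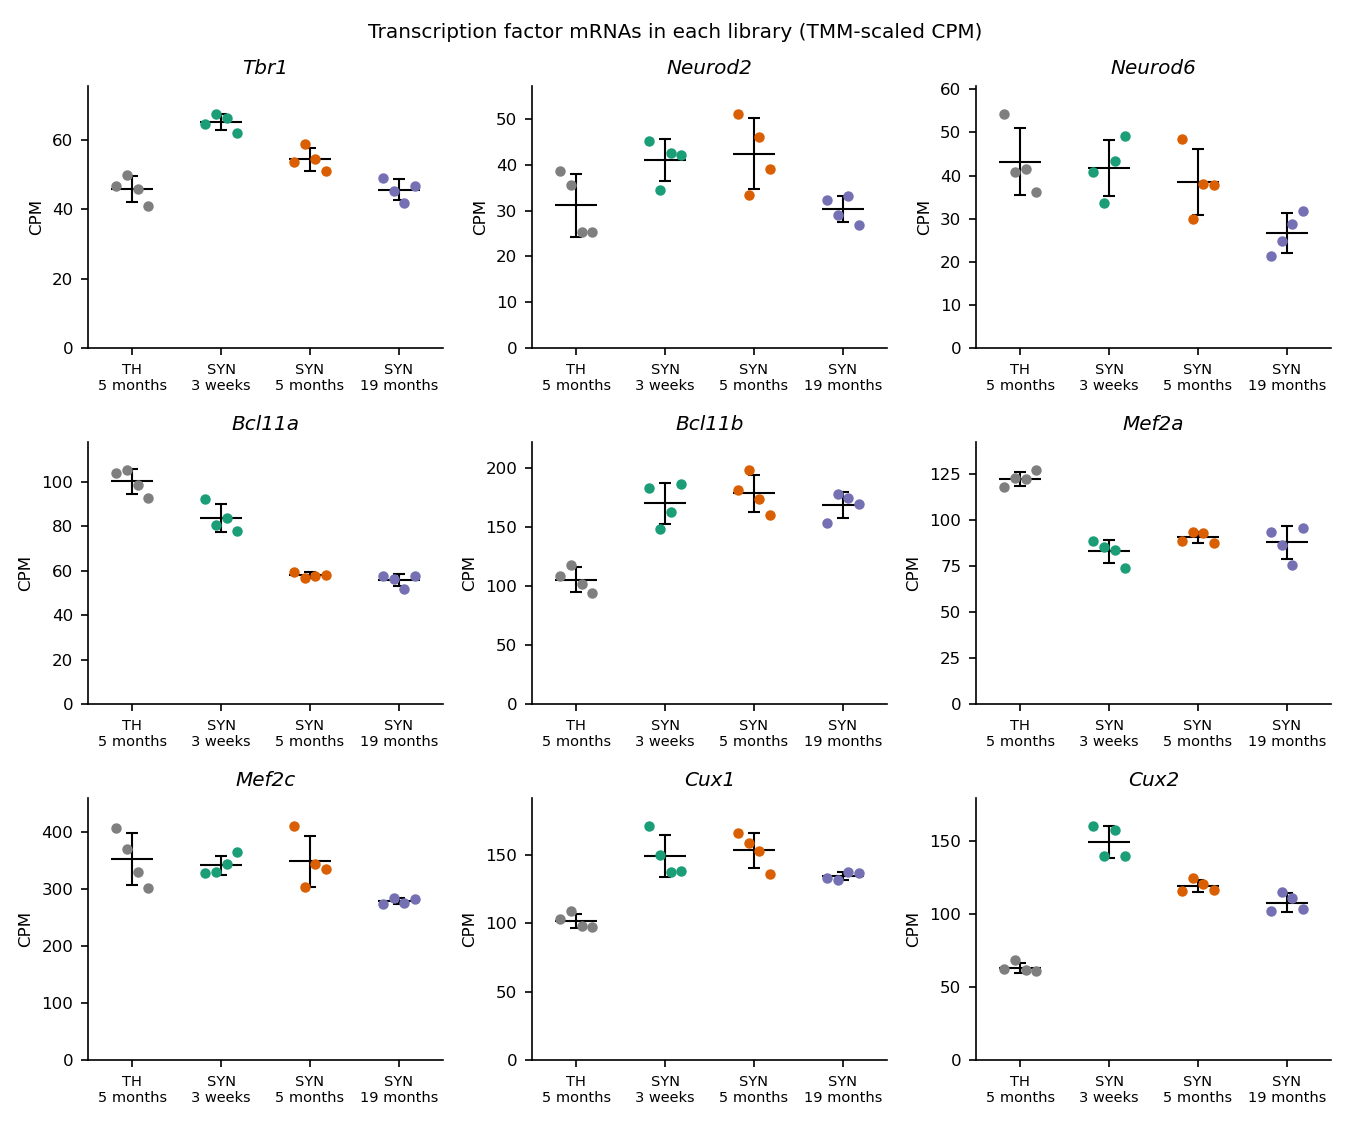
TMM-scaled CPM of the 9 genes in each of the 16 libraries (points), with the mean and SD of each group of 4 (black bar and whiskers); every axis starts at 0. Cux2, Cux1 and Bcl11b are higher and Bcl11a and Mef2a lower in 5 months SYN than in TH with no overlap, and Tbr1 steps down from 3 weeks to 19 months.

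The first comparison set synaptosomes against homogenate at 5 months, which asks which mRNAs are over- or under-represented in the synaptic fraction. The 9 factors did not move as a group. Cux2, Bcl11b, Cux1, Neurod2 and Tbr1 were higher in SYN, Bcl11a and Mef2a were lower, and Mef2c and Neurod6 were not called. Of all 17374 genes tested, 50.1% were called, 24.5% higher and 25.6% lower, so 7 of 9 called is read against a background of 1 gene in every 2. The median log2 fold change of the members was 0.26, and that of all genes tested -0.05. Groups of libraries did not overlap in CPM for 6 members, against 47.9% of all genes tested.

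Cux2 held 115, 124, 120 and 116 CPM in 5 months SYN replicates 1 to 4, and 62.0, 68.1, 61.3 and 60.6 CPM in TH. The lowest SYN library was far above the highest TH library. The log2 fold change was 0.93 (SE 0.0728, edgeR adjusted p = 9.54e-08), a 1.90-fold higher level. Its relative Cux1 held 166, 159, 153 and 136 CPM in SYN against 104, 109, 98.1 and 97.6 CPM in TH. These groups did not overlap either, and the log2 fold change was 0.60 (SE 0.0778, edgeR adjusted p = 1.59e-05).

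The BCL11 genes, whose proteins are related subunits of the same kind of complex, went in opposite directions. Bcl11b held 181, 198, 173 and 160 CPM in SYN and 108, 118, 101 and 93.7 CPM in TH, a log2 fold change of 0.77 (SE 0.0881, edgeR adjusted p = 4.54e-06). Bcl11a was at 59.5, 56.7, 57.7 and 58.2 CPM in SYN and at 104, 105, 98.7 and 92.5 CPM in TH. Every SYN library had less Bcl11a than every TH library, and its log2 fold change was -0.78 (SE 0.0748, edgeR adjusted p = 7.97e-07). In TH the counts of both genes were close to equal in each library, and in SYN Bcl11b had about 3 times the counts of Bcl11a.

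Of the basic helix-loop-helix pair, Neurod2 held 51.1, 33.4, 46.1 and 39.1 CPM in SYN and 38.6, 35.6, 25.3 and 25.3 CPM in TH. SYN replicate 2 lay below TH replicates 1 and 2, so the groups overlapped, and the log2 fold change was 0.46 (SE 0.164, edgeR adjusted p = 0.0348). Neurod6 held 48.4, 29.9, 38.0 and 37.8 CPM in SYN and 54.3, 40.7, 41.6 and 36.3 CPM in TH, and was not called (log2 fold change -0.15, 95% confidence interval -0.47 to 0.17, edgeR adjusted p = 0.420). The T-box gene Tbr1 held 53.4, 58.8, 54.3 and 50.9 CPM in SYN against 46.6, 49.8, 45.7 and 40.8 CPM in TH. Its groups did not overlap, by a narrow margin, with a log2 fold change of 0.26 (SE 0.0874, edgeR adjusted p = 0.0217). The calls of Tbr1 and Neurod2 rest on the scaling: with upper-quartile scaling, which moved the median of all genes by -0.14 and the share of higher among called genes from 48.8% to 37.9%, they were at 0.12 (adjusted p = 0.255) and 0.32 (adjusted p = 0.120). With DESeq2 size factors in the edgeR fit they also missed the threshold (0.20, adjusted p = 0.0658, and 0.40, adjusted p = 0.0619). With the DESeq2 Wald test Tbr1 was not called (0.20, adjusted p = 0.0611), and Neurod2 was (0.40, adjusted p = 0.0452). They also rest on single libraries, since both were lost without TH replicate 3 or TH replicate 4 (Tbr1 adjusted p = 0.0515 and 0.0641, Neurod2 0.0937 and 0.0835), Neurod2 without SYN replicate 1 (0.112) or 3 (0.0925), and Tbr1 without SYN replicate 2 (0.0611).

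Among the MADS-box genes, Mef2a held 88.7, 93.4, 93.1 and 87.6 CPM in SYN and 118, 123, 122 and 127 CPM in TH. The 4 SYN libraries lay below the 4 TH libraries, and the log2 fold change was -0.43 (SE 0.0668, edgeR adjusted p = 9.73e-05). Mef2c, the member with the most counts, held 410, 303, 344 and 335 CPM in SYN and 405, 369, 329 and 302 CPM in TH. These groups covered nearly the same range, with a log2 fold change of -0.00 and a 95% confidence interval from -0.23 to 0.22 (edgeR adjusted p = 0.977).

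**Figure D2:**
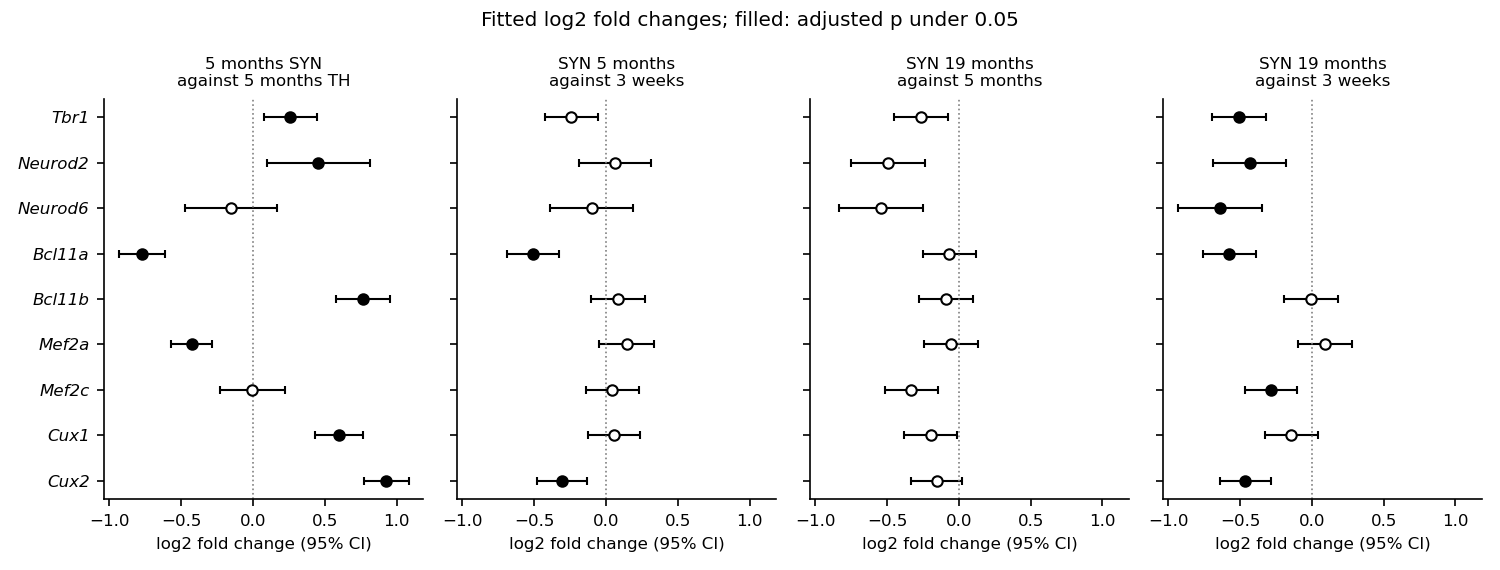
Log2 fold changes of the 9 genes from edgeR in 4 comparisons (points) with 95% confidence intervals (lines); filled points have an adjusted p under 0.05. Cux2 at 0.93 and Bcl11a at -0.78 bound the SYN against TH panel, and all 6 filled points of 19 months against 3 weeks lie below 0.

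Other transcription factors of cortical projection neurons and forebrain gave a similar mix, with more higher than lower. Of 38 tested, 22 were higher in SYN, 2 lower and 14 not called, with a median log2 fold change of 0.34. Hivep2, a zinc finger factor, had a mean of 1631 CPM in synaptosomes against 401 CPM in homogenate, with a log2 fold change of 2.03 (SE 0.115, edgeR adjusted p = 7.41e-09). Pou3f3, a POU-domain factor of upper layers, was at 154 and 54.4 CPM (1.51, SE 0.0811, adjusted p = 2.72e-09). Of 17 interneuron transcription factors, 5 were higher and 0 lower (edgeR; median 0.26), among them Nr2f1 (0.97, SE 0.0926, adjusted p = 7.84e-07) and Sox6 (0.82, SE 0.0986, adjusted p = 7.81e-06). Partners of the members, such as BAF subunits and class IIa histone deacetylases, gave 12 higher, 5 lower and 7 not called of 24 (median 0.23). The deacetylase Hdac5, a repressor of MEF2 proteins, averaged 262 CPM in synaptosomes and 79.8 CPM in homogenate (1.73, SE 0.109, adjusted p = 1.34e-08), and the BAF subunit Arid1a at 337 and 169 CPM (1.01, SE 0.0905, adjusted p = 3.68e-07).

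Markers of compartments and other cells moved in the same comparison. All 16 dendritic mRNAs tested were higher in SYN, with a median log2 fold change of 1.83, above that of any member, and their summed level was 28221 to 33648 CPM in SYN and 8089 to 9438 CPM in TH. Of 13 nuclear noncoding RNAs, 9 were lower and 2 higher, with summed levels of 1899 to 7188 CPM in SYN and 21236 to 25206 CPM in TH. Markers of astrocytes (10 of 10 higher; sums of 6696 to 7747 CPM against 2939 to 3502 CPM), microglia (12 of 12 higher; 232 to 280 CPM against 111 to 121 CPM) and the oligodendrocyte lineage (9 of 10 higher; 2039 to 2502 CPM against 1278 to 1403 CPM) were more abundant in SYN, and 11 of 12 endothelial and mural markers fell (50.6 to 89.6 CPM against 231 to 348 CPM). Of these markers, Tek alone was at 0 counts in some library. Interneuron markers (4 higher and 2 lower of 8) and projection neuron markers (4 higher and 2 lower of 8) were mixed. The part of these shifts in the members' values was not tested. Without SYN replicate 4, the library with the most nuclear RNA, 5 members were higher and 2 lower, as with it.

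The next comparisons followed synaptosomes with age. They share libraries, so the 3 contrasts are not independent of each other, and they were fitted together on the 12 SYN libraries. From 3 weeks to 5 months, Bcl11a and Cux2 fell and no member rose, where 24.6% of 15344 genes tested were called, 13.3% higher and 11.3% lower. The median log2 fold change of the members was 0.05, and that of all genes 0.00. Groups did not overlap in CPM for 3 members (Bcl11a, Cux2 and Tbr1), against 22.7% of all genes tested. From 3 weeks to 19 months, Neurod6, Bcl11a, Tbr1, Cux2, Neurod2 and Mef2c fell and none rose, so 6 of 9 were lower where 9.44% of all genes tested were lower and 10.0% higher. There the members' median was -0.43, against 0.00 over all genes, and groups did not overlap for 7 members, the 6 called and Cux1, against 22.9% of all genes tested.

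Bcl11a held 92.2, 80.7, 83.4 and 77.6 CPM at 3 weeks, 59.5, 56.7, 57.7 and 58.2 CPM at 5 months, and 57.7, 56.0, 51.8 and 57.6 CPM at 19 months. The 3 weeks libraries lay above the rest, and the later ages overlapped. The log2 fold change was -0.51 (SE 0.0886, edgeR adjusted p = 1.17e-04) from 3 weeks to 5 months and -0.07 (SE 0.0896, edgeR adjusted p = 0.795) from 5 to 19 months. Its relative Bcl11b stayed at 148 to 186 CPM at 3 weeks, 160 to 198 CPM at 5 months and 153 to 178 CPM at 19 months. All 3 ages of Bcl11b overlapped, and from 3 weeks to 19 months its log2 fold change was -0.00 with a 95% confidence interval from -0.19 to 0.19 (edgeR adjusted p = 0.985).

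Cux2 held 160, 139, 157 and 139 CPM at 3 weeks, 115, 124, 120 and 116 CPM at 5 months, and 102, 115, 111 and 103 CPM at 19 months. No 3 weeks library overlapped the later ages, and the 5 months libraries lay just above those of 19 months. The log2 fold change was -0.31 (SE 0.0853, edgeR adjusted p = 0.00888) from 3 weeks to 5 months and -0.46 (SE 0.0857, edgeR adjusted p = 2.73e-04) from 3 weeks to 19 months. Cux1 was at 138 to 171 CPM, 136 to 166 CPM and 132 to 138 CPM at the same ages and was called in no age comparison.

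Tbr1 held 64.4, 67.3, 66.2 and 61.9 CPM at 3 weeks, 53.4, 58.8, 54.3 and 50.9 CPM at 5 months, and 48.9, 45.2, 41.7 and 46.7 CPM at 19 months. No age overlapped another. From 3 weeks to 19 months the log2 fold change was -0.51 (SE 0.0918, edgeR adjusted p = 2.29e-04), while the step from 3 weeks to 5 months (-0.24, adjusted p = 0.0517) just missed the threshold and that from 5 to 19 months (-0.26, adjusted p = 0.178) did too. Without 5 months SYN replicate 2 the first step passed (adjusted p = 0.0418), as it did with the DESeq2 Wald test (0.0282) and with all 16 libraries in the fit (0.0314).

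Neurod6 held 40.9, 33.6, 43.4 and 49.2 CPM at 3 weeks, 48.4, 29.9, 38.0 and 37.8 CPM at 5 months, and 21.3, 24.8, 28.8 and 31.8 CPM at 19 months. The first ages overlapped widely, and at 19 months replicate 4 alone reached the 5 months range. Neurod2 held 45.1, 34.6, 42.7 and 42.2 CPM, then 51.1, 33.4, 46.1 and 39.1 CPM, then 32.3, 29.1, 33.1 and 26.8 CPM. Its 19 months libraries lay below all others, the nearest being 5 months replicate 2. From 3 weeks to 19 months Neurod6 fell by 0.64 on the log2 scale (SE 0.143, edgeR adjusted p = 0.00194) and Neurod2 by 0.43 (SE 0.125, edgeR adjusted p = 0.0137). The Neurod2 call was lost without 19 months SYN replicate 4 (adjusted p = 0.0594).

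Mef2c held 327, 330, 343 and 363 CPM at 3 weeks, 410, 303, 344 and 335 CPM at 5 months, and 274, 284, 274 and 282 CPM at 19 months. The 19 months libraries lay below the other 8 SYN libraries and within a narrow range. From 3 weeks to 19 months its log2 fold change was -0.29 (SE 0.0895, edgeR adjusted p = 0.0241). That call was lost without 3 weeks replicate 3 (adjusted p = 0.0611) or 4 (0.0740), without 19 months replicate 3 (0.0635) or 4 (0.0503), and without both libraries that stand apart (0.0517). Mef2a stayed at 74.3 to 88.7 CPM, 87.6 to 93.4 CPM and 75.7 to 95.8 CPM and was called in no age comparison, with a 95% confidence interval from -0.10 to 0.28 for the log2 fold change from 3 weeks to 19 months (edgeR adjusted p = 0.554).

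Between 5 and 19 months edgeR called 0 members, with 0.3% of all 15344 genes called (0.13% higher and 0.169% lower). All 9 members had a negative log2 fold change, with a median of -0.20 against -0.00 over all genes. Other neuronal lists were also below 0 at this step. Medians were -0.16 for dendritic mRNAs, -0.08 for the other projection neuron and forebrain factors and -0.08 for projection neuron markers. Interneuron transcription factors were at -0.06 and partners at -0.01, while interneuron markers were at 0.22. Groups did not overlap in CPM for 4 members, Tbr1, Neurod2, Mef2c and Cux2, against 8.06% of all genes tested. Neurod6 was at -0.54 (SE 0.143, adjusted p = 0.0841), Neurod2 at -0.50 (SE 0.125, adjusted p = 0.0682) and Mef2c at -0.33 (SE 0.0896, adjusted p = 0.0855). The DESeq2 Wald test called these 3 genes lower (adjusted p = 0.0302, 0.0220 and 0.0173), as did a fit on the 8 libraries of these ages alone and the fit with no filter. Without 5 months SYN replicate 2, whose Neurod2 and Neurod6 levels were the lowest of its group, edgeR called the same 3 (adjusted p = 0.0216 for Neurod2, 0.0334 for Neurod6 and 0.0455 for Mef2c) and 124 genes in all. Without any other of the 8 libraries of these ages it called 0 members and 0 to 17 genes.

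Among the other cortical projection neuron and forebrain factors, 11 of 38 fell and 4 rose from 3 weeks to 5 months, and 17 fell and 3 rose from 3 weeks to 19 months (medians of -0.11 and -0.24). Sox4, a factor of immature neurons, was at 54.1 CPM at 3 weeks and 29.6 CPM at 19 months (log2 fold change -0.86, SE 0.127, edgeR adjusted p = 1.66e-05). Nr4a2, an orphan nuclear receptor, rose from 43.3 to 70.3 CPM between 3 weeks and 5 months (0.72, SE 0.107, adjusted p = 1.69e-05). Of 17 interneuron transcription factors, 2 fell and 3 rose from 3 weeks to 19 months, with Prox1 at -0.65 (SE 0.115, adjusted p = 1.64e-04) and Sp8 at 1.38 (SE 0.274, adjusted p = 6.23e-04). Partners gave 3 lower and 2 higher of 24, with Hdac5 at 0.65 (SE 0.103, adjusted p = 3.99e-05) and Smarca4, the ATPase of the BAF complex, at -0.42 (SE 0.0827, adjusted p = 6.19e-04). Between 5 and 19 months Smarca2, the alternative ATPase, fell (-0.49, SE 0.0909, adjusted p = 0.0182), the single gene of these 3 lists that was called.

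Other markers also moved with age. Oligodendrocyte lineage markers fell from summed levels of 6427 to 8681 CPM at 3 weeks to 2039 to 2502 CPM at 5 months (10 of 10 lower) and were at 2033 to 2811 CPM at 19 months (9 of 10 lower than at 3 weeks). Of 12 microglial markers, 7 were higher at 19 months than at 3 weeks and 5 were not called, with summed levels of 289 to 452 CPM against 167 to 247 CPM. The nuclear noncoding RNAs were at 1076 to 1371 CPM at 3 weeks and 2009 to 2887 CPM at 19 months (3 of 13 higher). Of these 13, 9 rose from 3 weeks to 5 months. At 5 months replicates 1 to 3 summed to 1899 to 2552 CPM and replicate 4 to 7188 CPM. Dendritic mRNAs gave 6 higher and 2 lower of 16 from 3 weeks to 19 months, and projection neuron markers 2 higher and 2 lower of 8, with sums of 2848 to 3342 CPM and 2592 to 2851 CPM. At 5 months the projection neuron markers summed to 2873 to 3100 CPM, above every 19 months library. Median log2 fold changes from 5 to 19 months were 0.43 for microglial, 0.12 for oligodendrocyte lineage and 0.03 for astrocyte markers. They were -0.10 for endothelial and mural markers and -0.27 for nuclear noncoding RNAs. The part of these shifts in the members' values was not tested.

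Ratios of related members within a library do not depend on scaling, and were compared by a two-sided exact permutation test of 4 against 4 libraries, which cannot go below p = 0.0286. Of 16 ratio tests (4 pairs of genes in 4 comparisons), 8 reached that value. After adjustment over the 16 tests those 8 were at 0.0571, so 0 passed 0.05. The log2 ratio of Bcl11a to Bcl11b counts was -0.07 ± 0.07 in TH (mean ± SD, n = 4), -1.02 ± 0.17 in 3 weeks SYN, -1.61 ± 0.14 in 5 months SYN and -1.60 ± 0.15 in 19 months SYN. Those of TH, of 3 weeks SYN and of the later ages did not overlap. Cux1 to Cux2 was at 0.70 ± 0.03 in TH, 0.00 ± 0.14 at 3 weeks, 0.36 ± 0.12 at 5 months and 0.33 ± 0.10 at 19 months, so Cux2 counts lay on either side of those of Cux1 at 3 weeks and below them in every library of the other groups. Neurod2 to Neurod6 was at -0.48 ± 0.22 in TH and 0.14 ± 0.10 in 5 months SYN without overlap, with an exact permutation p of 0.0286 (adjusted 0.0571). Mef2a to Mef2c was at -2.04 ± 0.18 at 3 weeks and -1.67 ± 0.15 at 19 months, with no overlap, and the 5 months SYN libraries spread over both.

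**Figure D3:**
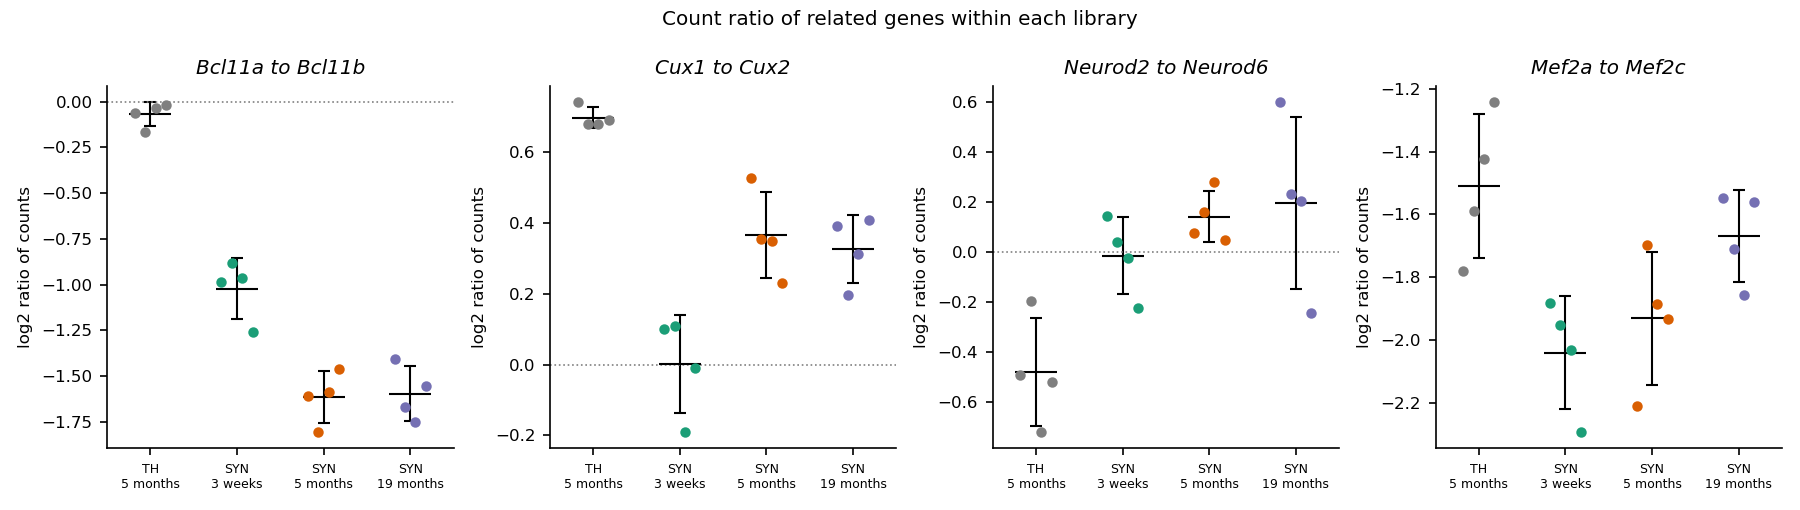
Log2 ratio of the counts of related genes in each library (points), with the mean and SD of each group of 4; axes differ between panels and do not start at 0. The ratio of Bcl11a to Bcl11b is near 0 in TH and between -1.80 and -0.88 in the SYN libraries.

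The splicing tables compare SYN ages and give a usage for each intron of a cluster, that is, an estimate of the share of a cluster's junction reads on that intron. The estimate for 1 age can differ somewhat between tables. They hold no values per library and no read numbers, so the depth behind a usage is unknown here and no replicate spread can be given. In the authors' deposited LeafCutter tables, 6 of the 9 members had clusters, 17 in all, and Tbr1, Neurod2 and Neurod6 had none. Of 44 tests of these clusters over the 3 tables, 4 had an adjusted p under 0.05, 3 in Mef2a and 1 in Mef2c. By comparison the calls were 1 of 14 member clusters from 3 weeks to 5 months (6.61% of all clusters tested were called in the authors' deposited table), 1 of 14 from 5 to 19 months (0.768%) and 2 of 16 from 3 weeks to 19 months (4.81%). At an adjusted p under 0.01, 1 of the 4 remained, from 3 weeks to 19 months, where 1.2% of all clusters passed that level (2.0% from 3 weeks to 5 months and 0.0248% from 5 to 19 months).

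The 24-base exon of Mef2a printed above gave calls in 2 of the 3 LeafCutter tables. In the authors' deposited tables, the intron that skips it held 3.82% of the cluster at 3 weeks and 1.17% at 5 months (adjusted p = 0.391), 1.04% at 5 months and 19.9% at 19 months (adjusted p = 0.0145), and 3.86% at 3 weeks and 19.8% at 19 months (adjusted p = 0.00107). The intron that skips the exon, and with it the acidic stretch of the capitals, thus held a small minority of the cluster at both earlier ages. It reached 19.8% to 19.9% at 19 months in these estimates. Included transcripts add a junction on each side of the exon, so this is not the share of transcripts that skip it. From 5 to 19 months the intron upstream of the exon went from 49.7% to 32.0%. The intron downstream of it stayed near its level (49.2% and 48.1%). Gene counts of Mef2a did not differ between these ages past the threshold, as given above. In the matching cluster of Mef2d, a family member outside the 9 genes with an exon of 21 bases at this place, skipping was called in no table: in the authors' deposited tables it was at 2.88% at 3 weeks and 3.17% at 5 months (adjusted p = 0.953), 3.17% at 5 months and 2.10% at 19 months (adjusted p = 0.667), and 2.87% at 3 weeks and 2.10% at 19 months (adjusted p = 0.705). For the 24-base exon of Mef2c the LeafCutter tables used here hold no cluster.

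In Mef2c the acceptor that keeps the 96-base stretch held 44.4% of its cluster at 3 weeks and 65.7% at 5 months. The adjusted p of this cluster in the authors' deposited table was 0.0258. The acceptor that drops exactly this stretch held 52.2% and 29.6%, and another just beyond it 3.41% and 4.69%. From 5 to 19 months the acceptor that keeps it went from 65.5% to 47.1% (authors' deposited table, adjusted p = 0.217). From 3 weeks to 19 months that acceptor was at 44.8% and 47.3% (adjusted p = 0.586). So the call concerns 5 months against 3 weeks, and the 19 months estimate lay near that of 3 weeks.

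For Cux1, the fork between the CASP and CUX1 arms was tested from 3 weeks to 19 months alone. The CASP arm held 49.8% of the cluster at 3 weeks and 34.7% at 19 months in the authors' deposited table, which was not called (adjusted p = 0.465). In Bcl11a, the minor of 2 introns that lead into the second exon was at 7.55% at 3 weeks and 31.4% at 5 months in the authors' deposited table, also not called (adjusted p = 0.150). The authors' deposited DIEGO tables, a second splicing method on the same libraries, list 111, 109 and 110 junctions of the members from 3 weeks to 5 months, from 5 to 19 months and from 3 weeks to 19 months. Of these, 0 had a q under 0.05 in any table, where 1.48%, 0.0% and 0.69% of all junctions did. The skipping junction of the 24-base exon is listed by the authors' deposited DIEGO table from 3 weeks to 19 months alone, with q = 0.0982.

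**Figure D4:**
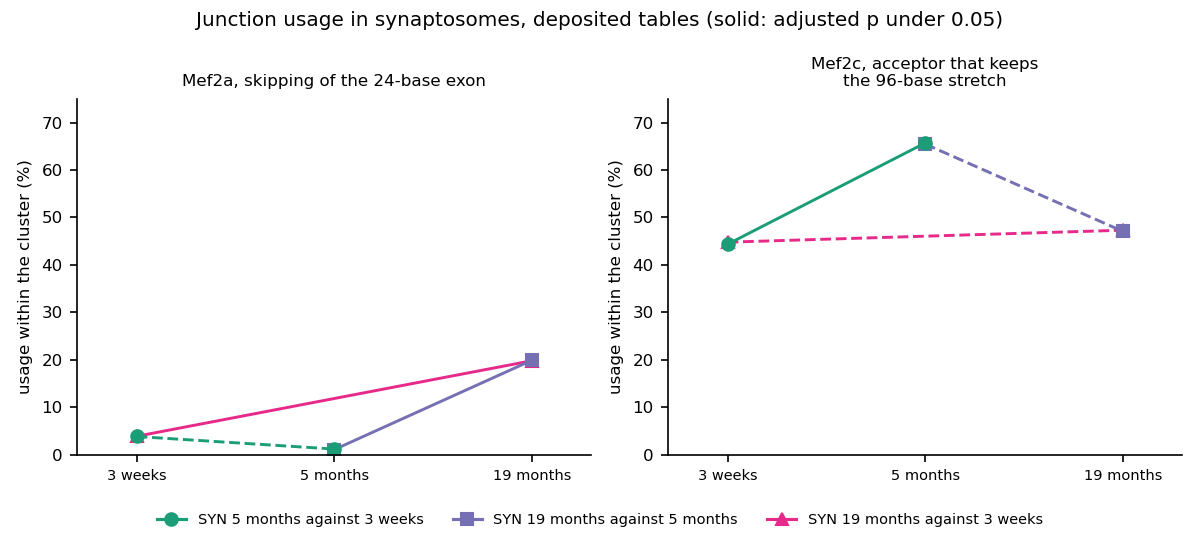
Usage of 2 junctions in SYN at each age (percent of the cluster), as the authors' deposited LeafCutter tables give it; each line joins the 2 ages of 1 table, solid where the adjusted p is under 0.05, and the tables hold no error. Skipping of the 24-base Mef2a exon reaches 19.8% to 19.9% at 19 months, and the Mef2c acceptor peaks at 65.7% at 5 months.

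For each member the genes with the most similar pattern were found by Pearson correlation of log2 CPM over the 16 libraries among the 9350 genes whose mean reached 5 CPM. The libraries share fraction, age and depth differences, so these are descriptions. Cux2 was most like Cbx6, Srcin1 and Rab10 (r = 0.98 each), Bcl11b most like Caskin1, Palm and Chd3 (0.98 each), and Cux1 most like Fam53c, Ksr2 and Kif5c (0.97, 0.96 and 0.96). Bcl11a ran with Dot1l (0.97), Ranbp2 and Tpm1, and Mef2a with Nvl (0.97), Ralgapa2 and Dnm3. Tbr1 ran with Tshz3 (0.94), Dact2 and Dpysl3, and Neurod2 with Sept8 (0.91), Sertm1 and Sept7. Neurod6 and Mef2c were among each other's 3 nearest genes (r = 0.89), each also with Eif4g3 (0.90), and their first neighbours were Eif4g3 and Osbpl1a (0.95). Between members, Cux1 and Bcl11b (0.91), Cux1 and Cux2 (0.90) and Cux2 and Bcl11b (0.88) were alike over the 16 libraries. Over the 12 SYN libraries these were at 0.43, 0.42 and 0.12, and Cux2 was instead most like Bcl11a (0.91) and Tbr1 (0.86).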

How the data were processed

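The deposited counts are whole numbers of read pairs per gene, which the authors made with cutadapt 1.18, Trimmomatic 0.38 and featureCounts on build GRCm38.p6, per the submitters' processing notes; the library kit is stranded, and for the aligner and strand setting of counting the sources used here give nothing. The deposited LeafCutter tables hold a usage fraction per intron and an adjusted p-value per cluster, and each junction in the deposited DIEGO tables has an abundance change score with its p-value and q-value, per the file headers. Merged exon lengths in the deposited count table equal those of GENCODE vM21 for all 9 members.

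Genes were filtered with filterByExpr and TMM-scaled, and the quasi-likelihood test of edgeR 4.0.16 (R 4.3.3) was run on 8 libraries (SYN against TH) or the 12 SYN libraries (ages), with Benjamini-Hochberg adjustment over all genes tested. The fits were tested on simulated counts in which a small share of genes changed, as many up as down. Such counts cannot show how the scaling behaves where 50.1% of genes are called, as in SYN against TH. The edgeR p-values weigh a difference between groups against the spread between these libraries. Ratios used counts plus 0.5 and exact permutation over every split of the libraries, with numpy 2.4.6 and Benjamini-Hochberg adjustment. All 9 members are named; from each other list, up to 4 called genes by adjusted p in a comparison could be named, and for likeness the 3 genes of highest r. The members and lists were chosen with earlier results of these data known. At 5 months, column names of SYN and TH share a preparation number as well as the replicate number, from which pairing was inferred. The main SYN against TH fit and the ratio tests did not use this pairing. With the replicate block, 5 members were higher and 2 lower there, as without it. After group means were removed, libraries of the same number correlated at 0.198, 0.0363, 0.0701 and 0.214. The highest correlation with another number was 0.0626, 0.113, 0.00668 and -0.0884. No pair of replicates agreed within sampling noise. Alternatives were other scalings and filters, DESeq2 1.42.0, a replicate block, other sets of libraries and each library left out. Some results for a junction cluster and for a gene of the lists are not reported here.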

Additional observations from a re-analysis of the deposited data

How the results depend on the processing

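Bcl11a, Bcl11b, Cux1, Cux2 and Mef2a kept their call in SYN against TH under all 17 alternatives run, as did Bcl11a and Cux2 from 3 weeks to 5 months and Tbr1, Neurod6, Bcl11a and Cux2 from 3 weeks to 19 months under all 18. Members called higher in SYN against TH were 3 with DESeq2 size factors and 3 with upper-quartile scaling, and 3 to 5 with each library left out. From 5 to 19 months, where 46 genes were called, the count was 292 with no filter, 264 with the replicate block, 310 with the DESeq2 Wald test, 320 with only the 8 libraries compared, 28 with all 16 libraries in one fit, 5 without both libraries that stand apart and 0 to 124 with each library left out; members called lower were 3 with no filter, 3 with the replicate block, 3 with the DESeq2 Wald test, 3 with only the 8 libraries compared and 0 to 3 with each library left out. The age groups share replicate numbers and no stated pairing, and the replicate block changed the calls of Tbr1 from 3 weeks to 5 months (adjusted p = 0.0469) and of Neurod2, Neurod6 and Mef2c from 5 to 19 months (0.0128, 0.0173 and 0.0368), and no other of a member. With libraries paired by number, the exact paired permutation test of the ratios cannot go below p = 0.125. LeafCutter clusters called in members were 1 at an adjusted p under 0.01. Values near 0, none of them called, changed sign: Bcl11b from 3 weeks to 19 months was at 0.0021 with DESeq2 size factors, 0.018 with upper-quartile scaling, 0.0023 with mitochondrial genes removed, 0.0019 with 1 CPM in 4 libraries, 0.0023 with the DESeq2 Wald test, 0.047 without both libraries that stand apart, 0.0028 with only the 8 libraries compared and -0.058 to 0.048 with each library left out. With each library left out, Mef2c ran from -0.095 to 0.073 in SYN against TH and from -0.038 to 0.11 from 3 weeks to 5 months, Neurod2 from -0.035 to 0.16 and Neurod6 from -0.22 to 0.0033 from 3 weeks to 5 months, and Mef2a from -0.099 to 0.011 from 5 to 19 months. The ratio differences from 5 to 19 months ran from -0.078 to 0.20 for Neurod2 to Neurod6 (-0.11 without both libraries that stand apart), from -0.044 to 0.072 for Bcl11a to Bcl11b and from -0.082 to 0.016 for Cux1 to Cux2. The causes of these shifts were not tested. Depth did not limit the members' counts, which were at least 234, but 4 libraries a group limit the precision, and the splicing tables give no depth.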
